A study of Mus musculus with 9 samples.

Results

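The genes described here are 5 members of the Ms4a (membrane-spanning 4-domain A) family, Ms4a6d, Ms4a6c, Ms4a6b, Ms4a4c and Ms4a7, read in mouse brain after a stroke model. They were taken as every non-control array probe whose RefSeq accession maps to 1 of these genes, which gave 7 probes of 55681. All 7 probes, and so all 5 genes of 30849 tested, passed the filter on dim probes, for which some group had to have all 3 of its arrays marked well above background by the scanner software. The Ms4a6b probe passed through the groups with the stroke model alone. The family was picked because its signal differed between the study's groups, so its differences between groups are a description and carry no test of their own.

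Total RNA of brain from male C57BL/6 mice of 50 to 53 days was hybridised to 9 1-colour arrays, 3 per group, 24 h after reperfusion. The VEGF group underwent a transient 90 min block of the middle cerebral artery, and 3 h into reperfusion 1 µl of rhVEGF-A165 (recombinant human vascular endothelial growth factor A, 10 µg/ml) was given in the right lateral ventricle. The MCAO group underwent the same block and was given 1 µl of PBS there as vehicle. The sham group had sham surgery only, the labels state no injection for it, and mice of all groups were fasted overnight beforehand. The labels name different mice for each of 3 experiments but give neither the part of the brain nor the number of mice behind an array. The series title asks what VEGF does to gene expression after focal ischaemia.

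Ms4a genes code for small membrane proteins that cross the membrane several times. Ms4a1, which codes for CD20, marks B cells, and Ms4a2 codes for the beta chain of the high-affinity IgE receptor of mast cells. The Ms4a4, Ms4a6 and Ms4a7 branches are known in monocytes and macrophages, and Ms4a4b is known in T cells. In the healthy mouse brain Ms4a7 is used as a marker of macrophages at the brain's borders, which microglia of the parenchyma largely lack.

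Most of these genes are neighbours on chromosome 19. Among 21 Ms4a genes ordered along it in RefSeq's table of the GRCm38.p6 assembly, Ms4a7 is number 12, Ms4a4c 14, Ms4a4b 15, Ms4a6c 16, Ms4a6b 17 and Ms4a6d 19. The 250 bases before the transcript start are shown for those with a RefSeq entry, because the genes are close relatives that were high on the same arrays. For Ms4a7 only the first of its 2 starts is printed. They come from RefSeq with GRCm38.p6 coordinates and run 5′ to 3′ in the direction of the gene. Capitals mark the ETS core GGAAGT on either strand, the short core bound by ETS factors, a class that includes the myeloid factor PU.1.
Ms4a6c, chr19:11469118-11469367, plus strand: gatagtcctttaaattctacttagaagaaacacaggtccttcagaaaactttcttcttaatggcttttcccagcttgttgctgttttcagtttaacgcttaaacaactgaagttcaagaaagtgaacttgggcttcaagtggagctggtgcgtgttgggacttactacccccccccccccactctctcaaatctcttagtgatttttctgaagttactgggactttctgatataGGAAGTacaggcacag
Ms4a6b, chr19:11518309-11518558, plus strand: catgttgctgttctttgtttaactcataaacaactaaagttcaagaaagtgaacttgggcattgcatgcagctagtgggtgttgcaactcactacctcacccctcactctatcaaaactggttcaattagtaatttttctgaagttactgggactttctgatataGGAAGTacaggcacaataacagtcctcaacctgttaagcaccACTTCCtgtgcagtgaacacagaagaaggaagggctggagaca
Ms4a4c, chr19:11407411-11407660, plus strand: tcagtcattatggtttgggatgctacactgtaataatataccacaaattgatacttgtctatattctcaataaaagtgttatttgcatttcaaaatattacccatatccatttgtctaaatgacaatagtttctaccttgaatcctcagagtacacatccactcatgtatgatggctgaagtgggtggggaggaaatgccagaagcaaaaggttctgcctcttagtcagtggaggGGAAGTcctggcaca
Ms4a4b, chr19:11443308-11443557, plus strand: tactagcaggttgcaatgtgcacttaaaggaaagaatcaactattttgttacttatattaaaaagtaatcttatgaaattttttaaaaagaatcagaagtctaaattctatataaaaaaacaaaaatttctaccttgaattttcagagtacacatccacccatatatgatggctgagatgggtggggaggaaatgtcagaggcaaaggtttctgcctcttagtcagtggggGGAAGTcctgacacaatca
Ms4a7 (start 1), chr19:11336147-11336396, minus strand: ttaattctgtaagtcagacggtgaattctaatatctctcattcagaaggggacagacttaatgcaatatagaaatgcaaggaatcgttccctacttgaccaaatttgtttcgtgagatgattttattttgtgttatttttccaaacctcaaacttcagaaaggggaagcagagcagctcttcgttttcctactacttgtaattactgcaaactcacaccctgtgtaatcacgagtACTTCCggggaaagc
The ETS core lay in the window of all 4 members with an entry, and 19.7% of the 32851 RefSeq promoter windows of this length hold it. In Ms4a6c, Ms4a4c, Ms4a4b and the first Ms4a7 start it stood within the last 19 bases before the transcript start, and Ms4a6b had 2 matches farther up. The second Ms4a7 start had none, and neither did Ms4a8a, a family gene described further on. These 2 windows were searched but are not printed above, so every printed window holds a match. Ms4a6c and Ms4a6b share an unbroken run of 48 bases that contains the match, and Ms4a4c and Ms4a4b, aligned end to end, are identical at 192 bases (76.8%). Every other pair of windows was identical at 54.4% to 60.4% and shared runs of at most 9 bases.

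**Figure D1:**
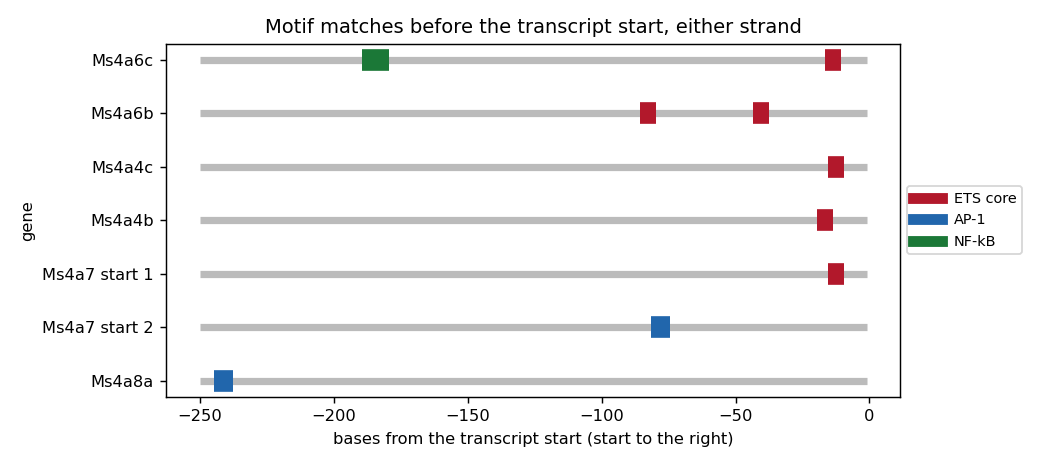
Matches of the ETS core, AP-1 and NF-kB motifs in the 250 bases before 7 transcript starts, in bases from the start on the horizontal axis, with 1 grey line per start. The ETS core stands within the last 19 bases of 4 windows, at 2 places in Ms4a6b, and in neither the second Ms4a7 start nor Ms4a8a.

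Other motifs were searched on both strands in the same windows. The NF-kB motif was in Ms4a6c (17.6% of all windows), and the AP-1 motif TGANTCA was in Ms4a8a and the second Ms4a7 start (6.75%). The interferon-response motif (2.98%), the ETS-IRF composite (2.30%) and the C/EBP motif TTGCNNAA (9.56%) had no match in any of the 7 windows. The composite can overlap the interferon-response motif and no search allowed mismatches. A match is a stretch of letters and was not tied to binding of a factor here.

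Values below are log2 of the processed signal minus the array's own 75th percentile over non-control probes, so that 0 is the level of that percentile. They rank groups within a probe and do not compare 1 probe with another. Between 73.0% and 81.8% of spots were well above background, none was saturated, and the 75th percentile signal was 848 to 1830 in VEGF, 923 to 2070 in MCAO and 1420 to 1530 in sham. The lowest percentiles, 848 and 923, were those of VEGF array 1 and MCAO array 1, and VEGF array 1 also had the 73.0%. All levels are relative to that percentile, and its part in the deviation of these 2 arrays was not tested. VEGF array 1 and MCAO array 1 stood apart from the other ischaemic arrays: the median of 8 neuron markers was -2.33 and -2.44 log2 units relative to the sham mean on them and -0.86 to -0.45 on the other 4. On the same 2 arrays the median of 8 endothelial cell markers was 2.44 and 1.74 above the sham mean, against 0.30 to 0.63 on the other 4. All 8 neuron markers and all 5 astrocyte markers were well above background on all 9 arrays. All sham arrays lay on 1 slide and all VEGF and MCAO arrays on another, so slide and surgery cannot be told apart in any comparison with sham. MCAO array 1 was also scanned on another day and, per the file headers, processed without the spatial detrending used on the other 8 arrays.

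Ms4a6d and Ms4a6c, a pair of closely related macrophage-lineage genes, were the members with the widest gap between ischaemic and sham brain. Ms4a6d read 2.88, 1.82 and 1.69 in VEGF brains, 2.48, 1.54 and 1.80 in MCAO brains and -3.62, -3.23 and -3.30 in sham brains. The ischaemic and sham arrays were far from overlapping, while VEGF and MCAO arrays interleaved. The difference was 5.51 ± 0.36 log2 units for VEGF minus sham (45.6-fold; SE of the fit, n = 3 arrays each) and 5.32 ± 0.36 for MCAO minus sham (40.1-fold). Without the 2 arrays that stood apart, these differences were 5.14 and 5.05. Sham brain had a low but measurable signal of this probe, 102 to 143 units, well above background on all 3 arrays.

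Ms4a6c read 1.13, 0.74 and 0.22 in VEGF brains, 0.87, 0.07 and 0.59 in MCAO brains and -4.28, -4.12 and -4.47 in sham brains. Here too each ischaemic array lay over 4 log2 units above the highest sham array, and the 2 ischaemic groups interleaved. VEGF minus sham was 4.99 ± 0.29 (31.8-fold) and MCAO minus sham was 4.80 ± 0.29 (27.9-fold), or 4.78 and 4.62 without the 2 arrays that stood apart. Of all pairs of member probes, Ms4a6d and Ms4a6c had the closest profiles over the 9 arrays, with a root mean square difference of 0.48 log2 units once each probe's sham mean was subtracted.

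Ms4a6b, the third gene of the Ms4a6 branch measured here, was dim. It read -0.56, -3.36 and -4.10 in VEGF brains, -3.21, -4.60 and -3.71 in MCAO brains and -8.07, -6.19 and -7.48 in sham brains. All 6 ischaemic arrays were above all 3 sham arrays, but only 1 of the 3 sham arrays was well above background, and VEGF array 1 alone stood far above the rest with a signal of 489 against 72.8 to 151 units on the other ischaemic arrays. VEGF minus sham was 4.57 ± 0.89 and MCAO minus sham 3.41 ± 0.89. Without the 2 arrays that stood apart, the values were 3.52 and 3.09, which left VEGF minus MCAO at 0.43 where it was 1.17 with all arrays.

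The 3 probes of Ms4a4c, a gene of the Ms4a4 branch, disagreed. Probe A_66_P106388 read -1.24, -0.53 and -2.41 in VEGF brains, 0.26, -2.57 and -1.38 in MCAO brains and -5.90, -5.94 and -5.61 in sham brains. Probe A_55_P2135986 read -1.98, -1.20 and -2.91 in VEGF brains, -0.85, -2.74 and -1.75 in MCAO brains and -4.94, -5.04 and -5.82 in sham brains. On both, every ischaemic array was above every sham array and the highest array was MCAO array 1. Before scaling to the array's 75th percentile the highest was VEGF array 2, with 1070 units on the first probe and 676 on the second, against 956 and 441 on MCAO array 1. The first gave 4.42 ± 0.69 for VEGF minus sham (21.4-fold) and 4.59 ± 0.69 for MCAO minus sham (24.0-fold). The second gave 3.24 ± 0.56 (9.43-fold) for VEGF minus sham and 3.49 ± 0.56 (11.2-fold) for MCAO minus sham. Without the 2 arrays that stood apart the first gave 4.34 and 3.84 and the second 3.21 and 3.02, with VEGF minus sham first in each pair.

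The third probe, A_55_P2135980, had by far the most signal of the 3 and showed almost no difference between the groups. It read 5.06, 4.14 and 4.34 in VEGF brains, 4.72, 4.16 and 4.36 in MCAO brains and 4.63, 3.96 and 4.27 in sham brains. Its signal was 20900 to 35000 units on all 9 arrays, and the 3 groups overlapped. VEGF minus sham was 0.22 ± 0.30 and MCAO minus sham 0.12 ± 0.30, and both turned below 0 (-0.05 and -0.03) without the 2 arrays that stood apart. Since the brightest probe stood for a gene in the fit over genes, Ms4a4c counts there by this flat probe. What each of the 3 probes binds was not tested, nor was whether probes of these closely related Ms4a genes pick up each other's transcripts.

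Ms4a7, the gene used as a marker of border macrophages, had the smallest gap to sham of the 6 member probes that had one. It read 0.88, 0.05 and -1.78 in VEGF brains, 0.75, -0.95 and -0.95 in MCAO brains and -2.37, -2.41 and -2.45 in sham brains. The sham arrays lay close together (SD 0.04), the ischaemic arrays were spread over more than 2 units, and the 2 sets did not overlap. VEGF minus sham was 2.13 ± 0.68 (4.37-fold) and MCAO minus sham 2.03 ± 0.68 (4.08-fold), and without the 2 arrays that stood apart the folds were 2.92 and 2.75.

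**Figure D2:**
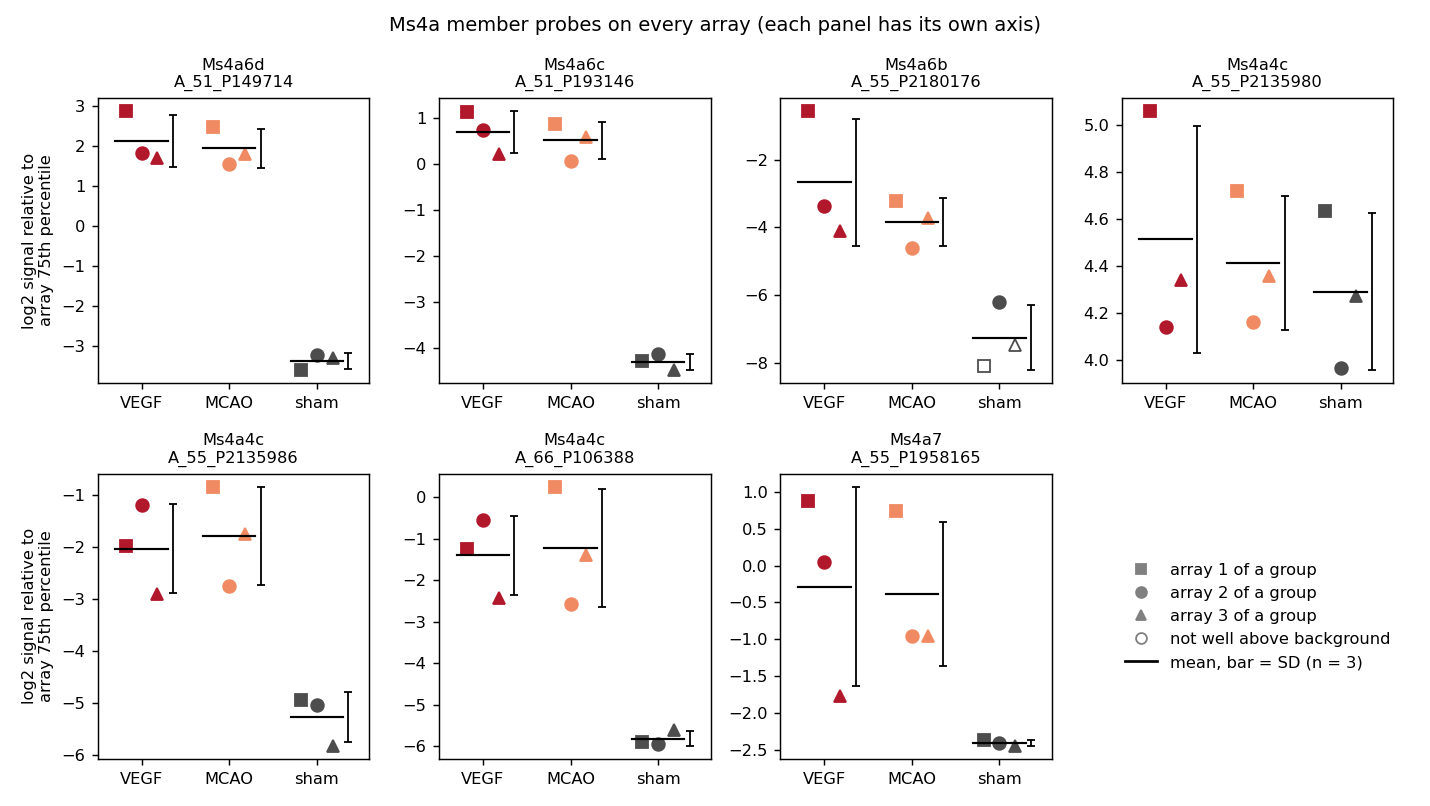
Level of each of the 7 member probes on the 3 VEGF, 3 MCAO and 3 sham arrays, as log2 signal relative to the array's 75th percentile, with 1 panel and 1 scale per probe, points for arrays, lines for means and bars for the SD. In 6 panels all VEGF and MCAO arrays lie above all sham arrays, while Ms4a4c probe A_55_P2135980 overlaps between 3.96 and 5.06.

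Across the genes tested, limma with Benjamini-Hochberg adjustment at 0.05 called 3 of the 5 members higher in VEGF than in sham, where 2.06% of all genes were called higher and 2.42% in either direction. It called 2 of the 5 higher in MCAO than in sham, where the share of all genes was 2.28%, or 2.81% in either direction. Ms4a6d and Ms4a6c were called in both comparisons and Ms4a6b only in VEGF against sham, a call that was lost with the replicate number as a block (adjusted p = 0.0525). It was also lost with normexp background correction (limma adjusted p = 0.153). Ms4a6b passed the filter through the ischaemic arrays, and its call rests on sham signals of which only 1 of 3 was well above background. That Ms4a6b was called in 1 of the 2 comparisons does not set them apart, since VEGF minus MCAO was 1.17 with a 95% interval of -0.86 to 3.20. Without the 2 arrays that stood apart, 3 of 5 members were called in each comparison, Ms4a6b with Ms4a6d and Ms4a6c, but 20% of all genes in VEGF and 22.8% in MCAO were then called in either direction. With every probe as its own item, both of the lower-signal Ms4a4c probes were called higher in each comparison, where 1.66% of probes in VEGF against sham and 1.81% in MCAO against sham were called higher. In each comparison the groups did not overlap for 4 of the 5 members and 6 of the 7 probes, against 18.2% of all genes that were higher without overlap in VEGF and 19.6% in MCAO. The median difference over the 5 members was 4.57 in VEGF and 3.41 in MCAO against sham, where the median of all genes was -0.12 and -0.04. The 2 comparisons share the sham arrays, and since the members were picked on these groups the counts describe them only.

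Between VEGF and MCAO brains no member stood out. Limma called 0 of 5 members, where 0.00648% of all genes (2, both lower) were called, and none of the members had an unadjusted p under 0.05, as 855 of all genes did. No member had its VEGF arrays all above its MCAO arrays, as 2.32% of all genes had. VEGF minus MCAO was 0.19 for Ms4a6d (95% interval -0.64 to 1.02) and 0.19 for Ms4a6c (-0.48 to 0.86). It was 0.10 for Ms4a7 (-1.46 to 1.66) and 0.10 for the bright Ms4a4c probe (-0.58 to 0.79), while the other Ms4a4c probes gave -0.25 ± 0.56 and -0.17 ± 0.69. True differences anywhere inside these intervals are compatible with the data from 3 arrays a group. The signs of the Ms4a6d, Ms4a6c, Ms4a4c and Ms4a7 differences turned when single arrays were left out.

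Other genes of the family were read from a list of 18, of which 12 had a probe and 8 passed the filter. Ms4a8a, reported in mouse macrophages of the alternatively activated kind, and Ms4a4b, the T cell gene next to Ms4a4c, were called higher in both comparisons, and the other 6 were not called in either. Ms4a8a read -1.57, -1.73 and -1.80 in VEGF brains, -1.40, -3.52 and -2.07 in MCAO brains and -8.94, -9.05 and -8.37 in sham brains. No sham array was well above background for it, and it passed the filter through the ischaemic arrays. Each sham array was therefore set at the higher of the probe's own signal and the lowest signal well above background on that array, which was 2.28 to 2.92 units. Against that floor Ms4a8a was at least 130-fold higher in VEGF than in sham brains (limma adjusted p = 0.000423) and at least 83.8-fold higher in MCAO than in sham brains (adjusted p = 0.000611). Both p-values come from the fit on the probe's own signals without a floor, and so rest on sham signals not well above background. Other probes were below background at higher signals: with the floor at the 95th percentile of signals not well above background (10.4 to 11.1 units), chosen after seeing the data, the bounds were 37.4-fold for VEGF and 24.1-fold for MCAO.

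Ms4a4b read -2.93, -2.64 and -3.89 in VEGF brains, -2.48, -2.99 and -2.44 in MCAO brains and -6.01, -6.44 and -6.74 in sham brains. It was 9.48-fold higher in VEGF than in sham (limma adjusted p = 0.00356) and 13.6-fold higher in MCAO than in sham (adjusted p = 0.00168), and all 6 ischaemic arrays lay above the sham arrays. VEGF minus MCAO was -0.52 for Ms4a4b and 0.63 for Ms4a8a, and neither was called. Ms4a1 was well above background on 1 VEGF, 3 MCAO and 0 sham arrays, and it passed the filter through the MCAO arrays. It read 2.24-fold higher in MCAO than in sham, a plain fold that the first of these floors left unchanged. Its sham signals were 7.92 to 10.9 units, and the higher floor was not applied to it. Ms4a1 was not called (limma adjusted p = 0.448), and no fold is given for VEGF. The mast cell gene Ms4a2 was not well above background on any array, and Ms4a3, known in progenitors of granulocytes and monocytes, was so on 1 VEGF, 1 MCAO and 2 sham arrays.

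The related genes Tmem176a and Tmem176b, known in dendritic cells and other myeloid cells, were bright enough to be measured on all 9 arrays. VEGF minus sham was 0.95 for Tmem176a and 0.98 for the brighter Tmem176b probe, and MCAO minus sham was 0.73 and 0.88, none of which passed the test (limma adjusted p = 0.126, 0.0706, 0.208 and 0.0841). Ms4a5, Ms4a10 and Ms4a13 differed from sham by -0.45 to 0.06 in the fit over genes and were not called. A second, dimmer Ms4a5 probe was well above background on 0 VEGF, 2 MCAO and 3 sham arrays and read 5.06-fold lower in VEGF than in sham. This is the plain fold, which the first floor left unchanged, and it rests on VEGF signals of 2.81 to 10.5 units. The higher floor was not applied to this probe. As its own item it was not called (limma adjusted p = 0.0888). Without the 2 arrays that stood apart, 3 of the 8 genes were called higher in VEGF and 4 in MCAO against sham, and 1 lower in each. Of all 30849 genes, that fit called 2702 (8.76%) higher and 3473 lower in VEGF, and 3014 (9.77%) higher and 4009 lower in MCAO. With all arrays, the median difference over these 8 family genes was 0.58 in VEGF and 0.80 in MCAO against sham. Ms4a4d and Ms4a15 did not pass the filter, and Ms4a4a, Ms4a6e, Ms4a9, Ms4a12, Ms4a14 and Ms4a18 had no probe mapped to them. Outside the list, and named after their values were seen, Ms4a19 was well above background on all 9 arrays and differed from sham by 0.27 in VEGF and 0.14 in MCAO without being called, and Ms4a20 did not pass the filter.

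**Figure D3:**
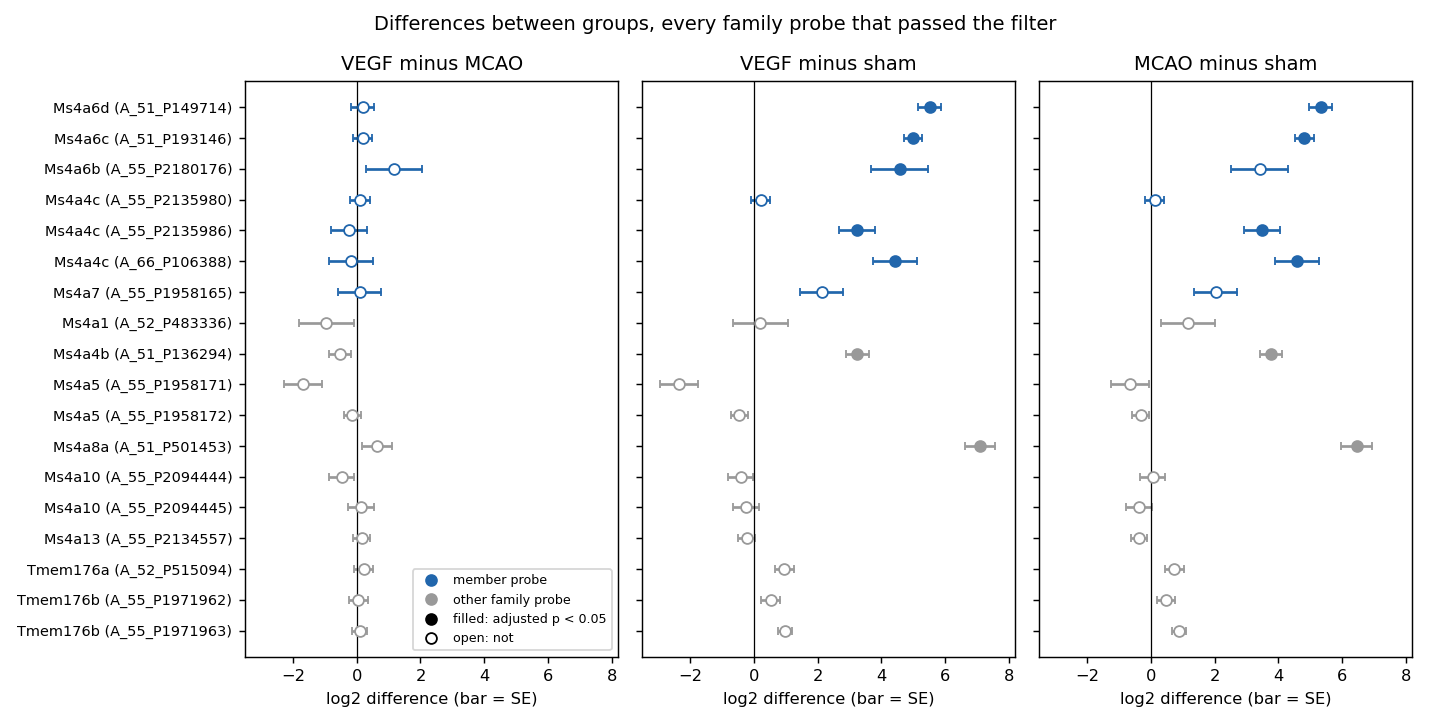
Differences in log2 signal, with bars for the SE, for VEGF minus MCAO, VEGF minus sham and MCAO minus sham, over 18 probes of the family that passed the filter, each tested as its own item. Blue points are member probes, grey points other family probes and filled points have an adjusted p under 0.05, and the Ms4a8a points against sham rest on sham arrays below background. Filled points lie at 3.24 or more in both comparisons with sham and none is filled for VEGF minus MCAO.

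Markers of several blood and brain cell types differed between the same arrays, and in whole tissue more cells of a type and more RNA per cell cannot be told apart. Of 7 tested monocyte markers, 5 were called higher in VEGF and in MCAO than in sham. Among them Chil3 was 6.55 and 6.00 log2 units higher, Ccr2, the receptor that brings monocytes to tissue, 5.65 and 5.13, Plac8 4.67 and 4.85 and Ifitm6 3.59 and 3.30, each with VEGF minus sham before MCAO minus sham. Of 8 neutrophil markers, 5 were called higher in both, S100a8, S100a9, Cxcr2, Mmp8 and Retnlg. Of all genes, 2.06% were called higher in VEGF and 2.28% in MCAO. Both marker counts were the same without the 2 arrays that stood apart, where these shares were 8.76% and 9.77%. Cxcr2, Mmp8, Retnlg and Ccr2 passed the filter through the ischaemic arrays. Only 0, 0, 2 and 1 of their 3 sham arrays were well above background, so their differences rest partly on sham signals near background. The other neutrophil markers were not called: Csf3r differed from sham by -0.17 in VEGF and 0.19 in MCAO, Camp by -0.40 and -0.31 and Ngp by 0.81 and -0.19. The monocyte median above the sham mean was 5.66, 4.76 and 3.58 in VEGF brains, 5.42, 3.82 and 4.55 in MCAO brains and -0.13 to 0.12 in sham brains. The neutrophil median was 7.03, 4.44 and 6.11 in VEGF brains, 7.05, 4.22 and 6.27 in MCAO brains and -0.65 to 0.44 in sham brains.

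Macrophage lists had smaller differences, with medians against sham of 1.91 in VEGF and 1.78 in MCAO for pan-macrophage markers and of 1.89 and 2.09 for border macrophage markers, where the monocyte list had 4.67 and 4.85. Of 9 pan-macrophage markers 4 were called higher in both comparisons, Adgre1, Fcer1g, Ptprc and Fcgr3, and Csf1r, the receptor on which microglia depend, differed from sham by 0.53 in VEGF and 0.23 in MCAO and was not called. Of 10 border macrophage markers only F13a1 was called (2.65 in VEGF and 3.00 in MCAO against sham), and for Cd163 0 of 3 sham arrays were well above background. Of 10 homeostatic microglia markers 0 were called higher, while P2ry12 fell by 2.31 in VEGF and by 2.67 in MCAO and Slc2a5 fell by 3.15 in VEGF and by 3.30 in MCAO. Without the 2 arrays that stood apart, 6 of 9 pan-macrophage markers were called higher in VEGF and 7 in MCAO, 5 of 10 border macrophage markers in VEGF and 8 in MCAO, and 1 of 10 microglia markers in VEGF and 2 in MCAO, with 2 and 3 microglia markers lower. In that fit 8.76% of all genes in VEGF and 9.77% in MCAO were called higher, and 3473 and 4009 of 30849 were called lower. The border macrophage medians were then 1.02 in VEGF and 1.46 in MCAO. Of 6 dendritic cell markers 0 were called higher in VEGF and 1, Itgax, in MCAO. Without those arrays 2 were called higher in each, and 1 was called lower in MCAO. Itgax differed from sham by 3.33 in VEGF (limma adjusted p = 0.0581) and 3.56 in MCAO (adjusted p = 0.0411). Ccr7 differed by 2.17 in VEGF and 2.16 in MCAO without being called. Also not called were Cd209a (-1.29 in VEGF and -1.61 in MCAO), Flt3 (-0.52 and -0.58), Zbtb46 (-0.64 and -0.30) and Clec9a (0.11 and 0.36). The list's median difference was -0.21 in VEGF and 0.03 in MCAO. Among lymphocyte markers 0 of 6 for B cells and 1 of 6 for T and NK cells, Cd3d, were called higher in each comparison, and 0 of 4 for mast cells were called. At an unadjusted p under 0.05 limma had 3 B cell markers in VEGF and 1 in MCAO against sham, and 0 mast cell markers.

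The summed level of a list, as multiples of the array's 75th percentile, was 118 to 272 in VEGF, 128 to 185 in MCAO and 82.4 to 104 in sham for pan-macrophage markers. For border macrophage markers it was 8.70 to 53.6 in VEGF, 13.4 to 26.9 in MCAO and 4.21 to 4.59 in sham, and for microglia markers 133 to 285, 153 to 168 and 87.8 to 90.6 in the same order. The monocyte sum was 380 to 801 in VEGF, 361 to 505 in MCAO and 380 to 397 in sham, and the neutrophil sum was 101 to 224 in VEGF, 108 to 247 in MCAO and 82.4 to 105 in sham. A sum is weighted towards bright probes, and the monocyte list includes Vcan and F10, which differed from sham by 0.17 and 0.38 in VEGF and by 0.02 and 0.05 in MCAO. For Cxcr2 and Mmp8 no sham array was well above background, and Xcr1, a marker of 1 kind of dendritic cell, the NK cell marker Ncr1 and the mast cell marker Fcer1a were not so on any array. The part of these cell types in the Ms4a differences was not tested.

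**Figure D4:**
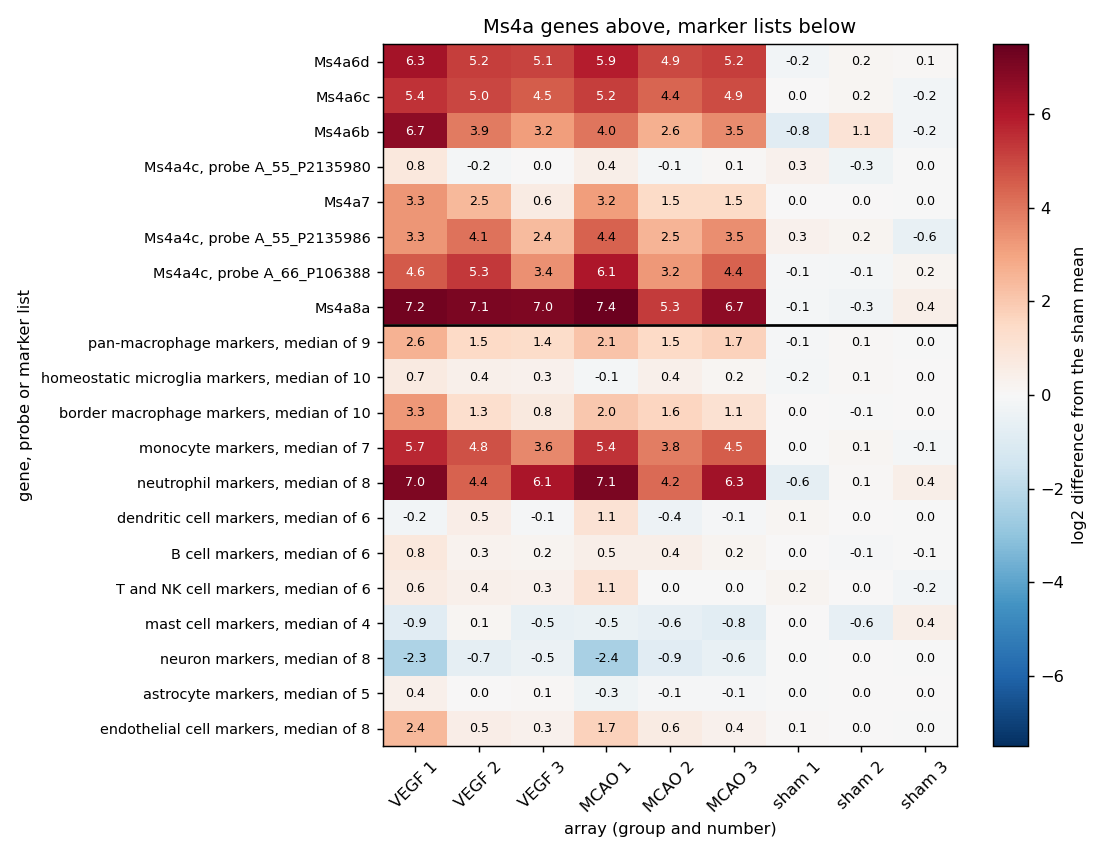
Difference from the sham mean, in log2 units, on each VEGF, MCAO and sham array for the member probes and Ms4a8a (above the line) and for the median of each marker list (below it), with colour and number giving the same value. Ms4a6d and Ms4a6c are 4.4 to 6.3 above the sham mean on all ischaemic arrays, while neuron and endothelial lists single out VEGF array 1 and MCAO array 1.

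For each member the 3 named genes outside the family with the nearest profile were looked up by the root mean square difference over the 9 arrays, among 17586 genes with a symbol. Nearest to Ms4a6d were Bcl3, a nuclear partner of NF-kB (0.29 log2 units), Ch25h, the enzyme that makes 25-hydroxycholesterol (0.31), and Sirpb1a, a myeloid surface receptor (0.41). Nearest to Ms4a6c were the proton-sensing receptor Gpr65 (0.23), the immune receptor Pilrb1 (0.36) and the small heat shock protein Hspb1 (0.36). Ms4a6b had no close match, with the interferon-inducible Ifi27l2a at 0.62, the chemokine Ccl6 at 0.63 and Rnf183 at 0.70. Nearest to Ms4a7 were Prx (0.21), the chemokine receptor Cxcr4 (0.26) and the endothelial gene Emcn (0.29).

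The Ms4a4c probes had different neighbours. Probe A_66_P106388 was nearest to Plbd1 (0.29), to Plac8 of the monocyte list (0.48) and to the Fc receptor gene Fcgr4 (0.53). Probe A_55_P2135986 was nearest to Slc28a2 (0.42), Rufy4 (0.43) and the interferon-stimulated gene Oas3 (0.46). The flat probe was nearest to Itsn1 (0.06), Sp110 (0.07) and Skint7 (0.07), and Itsn1 differed from sham by 0.28 in VEGF and 0.10 in MCAO. These distances describe 9 arrays that share their groups, and they carry no p-value.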

How the data were processed

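The scanner intensity values were deposited as Feature Extraction 10.7.1.1 gave them. Per the file headers, that software subtracted background, divided by a spatial trend (deposited as a ratio per spot, and not applied on MCAO array 1) and gave a processed intensity that is not scaled between arrays. The authors also deposited a table read as log2 values because its columns follow the log2 processed intensity. Its scale, centring and normalization are not stated, and it served as an alternative only.

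Intensities were put on the log2 scale, outlier spots were dropped, spots of a probe were averaged and the array's 75th percentile of non-control probes was subtracted. Of 55681 probes, 43935 had some group with all 3 arrays well above background and were kept, and the brightest probe stood for a gene. Genes were named by accession through RefSeq's GRCm38.p6 table, which named 26582 probes, and the array's own build is not given in the sources used here. The 9 arrays were fitted together with limma 3.58.1 in R 4.3.3 without covariates, two-sided, with Benjamini-Hochberg adjustment over 30849 genes at 0.05 and 8.48 degrees of freedom. A run of the fit on simulated data checked only that added differences came back at their size. Its errors were independent between arrays, so it says nothing on arrays that stand apart, on slides or on signals near background. The number of arrays limits the precision.

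The members, the family list, the marker lists and the alternatives were chosen with earlier results of these data known. All members, all measured genes of the family list, marker genes beside a result and the 3 nearest profiles per member were named. Same-numbered VEGF and MCAO arrays, with numbers taken from the labels, deviated together from their group means (correlation 0.587, 0.224 and 0.558 for numbers 1 to 3). Sham arrays gave -0.107 to 0.151 with either group. Deviations from a mean of 3 arrays depend on each other within a group. Since VEGF array 1 and MCAO array 1 both stood apart, same-number correlations can be positive without true pairs. Correlations between unlike numbers were not computed, so these values cannot tell whether the numbers mark pairs. The printed differences and intervals come from the fit without the block, which was run as an alternative. Alternatives covered background correction, scaling, detrending, outlier spots, filter, probe rule, array weights, block, the groups fitted and arrays left out.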

Additional observations from a re-analysis of the deposited data

How the results depend on the processing

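Ms4a6d and Ms4a6c were called higher than sham in both comparisons under all 20 alternatives run for each, at 4.98 to 5.73 (VEGF) and 4.78 to 5.52 (MCAO) log2 units for Ms4a6d and 4.16 to 5.23 and 3.97 to 5.02 for Ms4a6c. Leaving out single arrays gave 2 to 4 members called in VEGF against sham, 2 to 3 in MCAO against sham and 0 to 0 in VEGF against MCAO. With array weights 4 members were called in MCAO against sham, where 40.1% of all genes were called, and the cause was not tested. Over the alternatives, the share of all genes called ran from 0.506% to 23% in VEGF and from 0.616% to 40.1% in MCAO against sham. With the replicate block 2 members were called in each comparison with sham and 0 in VEGF against MCAO, also with the VEGF and MCAO arrays alone, and the block changed no other call. Ms4a6b in VEGF against sham was called under 11 of 20 alternatives, with adjusted p from 0.00695 to 0.178. It was not called with the block (0.0525), with normexp background correction (2.04, 0.153), with the 2 groups alone (0.0604), or without sham array 1, 2 or 3 (0.178, 0.0769 and 0.157), MCAO array 2 or 3 (0.0557 and 0.0664) or VEGF array 2 (0.0561). In MCAO against sham normexp gave Ms4a6b 1.09 log2 units (0.395), and it was called with the 2 groups alone (0.0221), with array weights (0.00397), without VEGF array 1 (0.0118) and without both arrays that stood apart (0.0153). Ms4a7 was called with array weights in VEGF (0.00981) and MCAO (0.00611) and, in VEGF, without VEGF array 3 (0.0434). The mean over its 3 probes made Ms4a4c called at 2.63 in VEGF (0.0230) and 2.73 in MCAO (0.0189), since it includes the 2 dimmer probes, a choice of probe also tried after seeing the data with each dimmer probe alone (4 members called in VEGF and 3 in MCAO). The bright Ms4a4c probe turned sign against sham without both arrays that stood apart (-0.051 in VEGF and -0.033 in MCAO) and ranged over -0.051 to 0.41 in VEGF and -0.041 to 0.29 in MCAO with single arrays left out. For VEGF minus MCAO, Ms4a4c turned to -0.00088 in the authors' deposited table, -0.10 with the mean over probes and -0.018 without both arrays that stood apart. With single arrays left out VEGF minus MCAO ranged over -0.19 to 0.46 for Ms4a6d, -0.034 to 0.42 for Ms4a6c, 0.11 to 1.88 for Ms4a6b, -0.17 to 0.29 for Ms4a4c and -0.48 to 0.85 for Ms4a7. Signals near background limit the sham values of Ms4a6b (well above background on 1 of 3 arrays), Ms4a8a and Ms4a1 (0 of 3), and the higher floor for Ms4a8a lowered its bounds to 37.4-fold in VEGF and 24.1-fold in MCAO.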
